A study of Mus musculus with 2 samples.

Results

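The genes described here are 34 chaperone and stress response genes of the cytosol and of the endoplasmic reticulum (ER), of 27998 genes counted. They were chosen by symbol, as 16 cytosolic heat shock members (Hspa1a, Hspa1b, Hspa8, Hspa4, Hspb1, Hspb8, Hsp90aa1, Hsp90ab1, Hsph1, Hspd1, Hspe1, Dnaja1, Dnajb1, Dnajb4, Bag3 and Cryab) and 18 ER members (Hspa5, Hsp90b1, Pdia3, Pdia4, Pdia6, Calr, Canx, Xbp1, Ddit3, Atf4, Herpud1, Creld2, Manf, Sdf2l1, Dnajb9, Dnajc3, Hyou1 and Mia3), and all 34 were found in both libraries. The cytosolic group also takes in Hspd1 and Hspe1, which work in mitochondria, and the ER group takes in Xbp1, Ddit3 and Atf4, which are transcription factors of the ER stress response. The study used Rosa26-mTmG;Fabp4-Cre mice, whose reporter answers to Cre made under the Fabp4 promoter, so that a cell with a history of Cre activity carries membrane GFP. The normal library held GFP-positive cells out of healthy pancreata (mice aged 6 to 9 weeks), which the labels call pancreatic stellate cells. The tumour library came from a sort for both GFP and podoplanin (PDPN) out of orthotopic tumours, grown for 21 days from FC1245 pancreatic cancer cells in mice aged 8 weeks, which the labels call cancer-associated fibroblasts. There was 1 library per group and no replicate, so no test of the conditions was possible, and the number of mice per library was not given.

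Chaperones bind unfolded protein and help it fold, and most members fall under one of a pair of stress programmes. In the cytosol, heat or other damage to proteins activates the factor HSF1, which binds heat shock elements in the promoters of Hsp70, Hsp90, Hsp40 and small heat shock protein genes. In the ER, unfolded secretory protein activates the sensors ATF6, IRE1 and PERK, and these act through cleaved ATF6, spliced XBP1 and ATF4 on ER chaperone genes. Fibroblasts secrete much collagen and therefore carry a large ER folding load, while heat shock and immediate early transcripts are also known to rise while tissue is digested to single cells.

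Start region sequences were taken from RefSeq (GRCm38.p6), which held an entry for 28 members (12 cytosolic and 16 ER); Hsp90aa1, Hsp90ab1, Hspa8, Cryab, Manf and Hyou1 had none. The 250 bases before each start were searched on both strands for short motifs. A gene with several annotated starts counted if any of its windows matched. Of the 34 start windows of members, 24 were followed by bases found near an annotated transcript start. The letters GAANNTTC, a pair of heat shock units that meet head to head, were found in 6 of the 12 cytosolic members (Hspa1a, Hspa1b, Hspb1, Hspd1, Hspe1 and Dnaja1), in 0 of the 16 ER members and in 7.73% of 27025 genes searched the same way. Windows of 4 members are shown in full, since the Hspa1a and Hspa1b pair is nearly identical and Hspb1 and Hspb8 had the highest and the lowest of the folds that reached the call described below. Capitals mark the fixed letters of GAANNTTC. Each window runs 5′ to 3′ and ends at the base before the start.
Hspa1a (chr17:34972157-34972406, minus strand): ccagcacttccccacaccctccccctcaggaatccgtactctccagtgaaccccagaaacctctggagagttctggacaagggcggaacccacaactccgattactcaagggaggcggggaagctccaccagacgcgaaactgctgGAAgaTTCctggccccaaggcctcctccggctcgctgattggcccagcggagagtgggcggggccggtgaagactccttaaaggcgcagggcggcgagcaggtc
Hspa1b (chr17:34959239-34959488, minus strand): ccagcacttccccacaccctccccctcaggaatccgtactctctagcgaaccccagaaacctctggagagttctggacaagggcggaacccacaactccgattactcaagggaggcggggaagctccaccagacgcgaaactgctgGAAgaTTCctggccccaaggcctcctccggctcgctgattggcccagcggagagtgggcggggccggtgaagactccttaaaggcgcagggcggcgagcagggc
Hspb1 (chr5:135887669-135887918, plus strand): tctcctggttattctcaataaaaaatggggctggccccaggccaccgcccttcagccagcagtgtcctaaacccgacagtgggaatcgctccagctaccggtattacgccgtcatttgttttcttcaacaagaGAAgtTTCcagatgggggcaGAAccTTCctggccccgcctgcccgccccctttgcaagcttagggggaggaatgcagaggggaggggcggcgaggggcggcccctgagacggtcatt
Hspb8 (chr5:116422865-116423114, minus strand): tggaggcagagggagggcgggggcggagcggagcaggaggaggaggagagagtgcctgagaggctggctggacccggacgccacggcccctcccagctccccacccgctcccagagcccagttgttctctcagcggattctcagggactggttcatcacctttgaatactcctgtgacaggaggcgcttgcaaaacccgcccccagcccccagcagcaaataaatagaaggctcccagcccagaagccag
The Hspa1a and Hspa1b windows differed at 3 of 250 bases and held the motif 104 bases before the start. Hspb1 held it at 117 and at 97 bases before the start, and Hspb8 held none of the searched heat shock letters. Dnaja1 held GAANNTTC in only some of its annotated start windows.

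The other arrangement, TTCNNGAA, was found in 4 of the 12 cytosolic members (Hsph1, Hspd1, Hspe1 and Dnajb4), in 0 ER members and in 8.11% of all genes. In Dnajb4 it was found before only 1 of the annotated starts. It can overlap GAANNTTC, and in Hspd1 and Hspe1 it did. These genes, which encode the mitochondrial chaperonin and its co-chaperonin, lie head to head on opposite strands and share 1 stretch of repeated units. It lies before the Hspe1 start and before 1 of 2 annotated Hspd1 starts, and the window of the other Hspd1 start held no match. That stretch holds 4 alternating units in a row. The motif of 3 units, GAANNTTC followed by a further GAA, lies within it and was found in 0.514% of all genes. The capitals below mark the units.
Hspe1 (chr1:55088054-55088081, plus strand, 89 bases before the start): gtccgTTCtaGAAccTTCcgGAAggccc
Hsph1 (chr5:149636357-149636374, minus strand): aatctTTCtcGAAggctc
Dnaja1 (chr4:40722339-40722356, plus strand): ctctaGAAaaTTCtacga

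The ER members shared a different motif. The ER stress response element, CCAAT and CCACG with 9 bases between them, was found in 7 of the 16 ER members, in 0 of the 12 cytosolic members and in 0.13% of all genes. Short stretches around it are shown with the fixed letters in capitals, read on the gene's own strand, so that a match on the other strand appears as its reverse complement.
Hspa5 (chr2:34772020-34772048, plus strand): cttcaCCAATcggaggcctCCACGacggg
Hsp90b1 (chr10:86705633-86705661, minus strand): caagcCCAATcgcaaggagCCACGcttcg
Hsp90b1 (chr10:86705528-86705556, minus strand): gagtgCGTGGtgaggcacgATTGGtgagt
Pdia6 (chr12:17266486-17266514, plus strand): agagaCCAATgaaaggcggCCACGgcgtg
Calr (chr8:84847070-84847098, minus strand): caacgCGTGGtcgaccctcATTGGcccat
Canx (chr11:50325795-50325823, minus strand): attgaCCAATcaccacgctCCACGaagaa
Creld2 (chr15:88819515-88819543, plus strand): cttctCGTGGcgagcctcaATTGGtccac
Dnajc3 (chr14:118937822-118937850, plus strand): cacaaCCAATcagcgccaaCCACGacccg
A shorter form of the element, ATTGG and CCACG with 1 base between them, was found in Herpud1 among the ER members and in 0.037% of all genes.
Herpud1 (chr8:94386372-94386392, plus strand): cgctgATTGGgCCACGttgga
Herpud1 also held TGATGCAA, a core of ATF4 sites, which 0.918% of genes had. TGACGTGG, an XBP1 core, was found in 0 members and in 0.603% of genes. These matches describe letters in the windows, and binding was not measured.

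The normal library had 5437 cell barcodes with 36675424 unique molecular identifiers (UMIs, counted transcripts) and the tumour library 2942 with 33285044, and filtering left 4520 and 2520 cells. The libraries shared 4 barcodes, 2 of them among cells kept. Cells were grouped by markers after clustering on variable genes without the 34 members. Fibroblast-like cells, with collagen genes, Dcn, Lum and Pdgfra, numbered 1511 in the normal library (33.4%) and 2258 in the tumour library (89.6%), with median depths of 9050 and 10420 UMIs. The 10 fibroblast markers were each detected in 66.9% to 98.9% of these normal and 67.2% to 99.6% of these tumour cells. The normal library, labelled as stellate cells, held nearly as many endothelial-like cells (1347) and many macrophage-like or monocyte-like cells (605). A further 784 normal cells lay in an unnamed cluster led by Clec10a, whose best-matching class was also macrophage or monocyte. Normal fibroblast-like cells lay mostly in the clusters led by Tenm4 (1053 cells) and Krtdap (409), and tumour cells in those led by Ptx3 (1175), Thbs4 (650) and Lrrc15 (398), so that cluster and library nearly coincided. Normal tissue was digested for 10 min and 5 min and tumours for 1 h and then 10 min in trypsin, at 37 °C in each case, and only the tumour sort used PDPN. Tissue state, digestion and gate cannot be told apart.

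In fibroblast-like cells the cytosolic members were higher in the tumour library and the ER members were nearly level. Levels are given as CPM, the UMIs of a gene per 1000000 UMIs of the summed cells, with 95% intervals of counting error only, since UMIs of 1 library do not show the spread between mice. A gene was called if its CPM differed at least 2-fold, its interval excluded 1 and it reached 50 CPM in either sum. By this rule 9 of 16 cytosolic members were higher in the tumour sum and 0 lower, and 1 of 18 ER members was higher and 0 lower. Over all 3648 genes tested, 9.07% were called higher and 10.7% lower. The median log2 fold was 1.05 for the cytosolic members (0.38 to 1.43, the spread over members), 0.18 for the ER members (-0.14 to 0.45) and -0.25 for all 6840 genes with at least 20 CPM. Summed over members, the cytosolic level went from 5491 to 9789 CPM, 1.78 times as high, and the ER level from 7006 to 7848 CPM, 1.12 times as high. Hspa1a, Hspb1, Dnajb1 and Bag3 were called in all 20 alternative settings. Hspa1b, Hspb8, Hsp90aa1 and Hsph1 were not called without the tumour Ptx3 cluster, Hspb8 and Hsp90aa1 without the normal Tenm4 cluster, Hspa1b without the normal Krtdap cluster, and Hspb8 and Cryab without the tumour Lrrc15 cluster. Among cells with a Pdpn UMI in both libraries 8 of 16 cytosolic members were called, where 9.64% of all genes were, and Hspb8 was not (log2 fold 0.88).

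The library sums are shares of a whole, and how they are scaled moved every gene alike. With TMM scaling, which sets a trimmed mean of genes level, the median of all genes was 0.13 instead of -0.25, the cytosolic median 1.39 and the ER median 0.52. Of all genes 559 were then called higher and 191 lower, instead of 331 and 391. The 9 members below their normal level all came out above it under that scaling and under median ratio scaling. Relative to the median of all genes, 15 of 16 cytosolic and 17 of 18 ER members were higher, and the gap between the 2 list medians was 0.87 under either scaling. That median depends on the CPM minimum. Without rescaling, a minimum of 100 CPM put it at -0.02, and the ER median then lay 0.19 above it instead of 0.43.

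**Figure D1:**
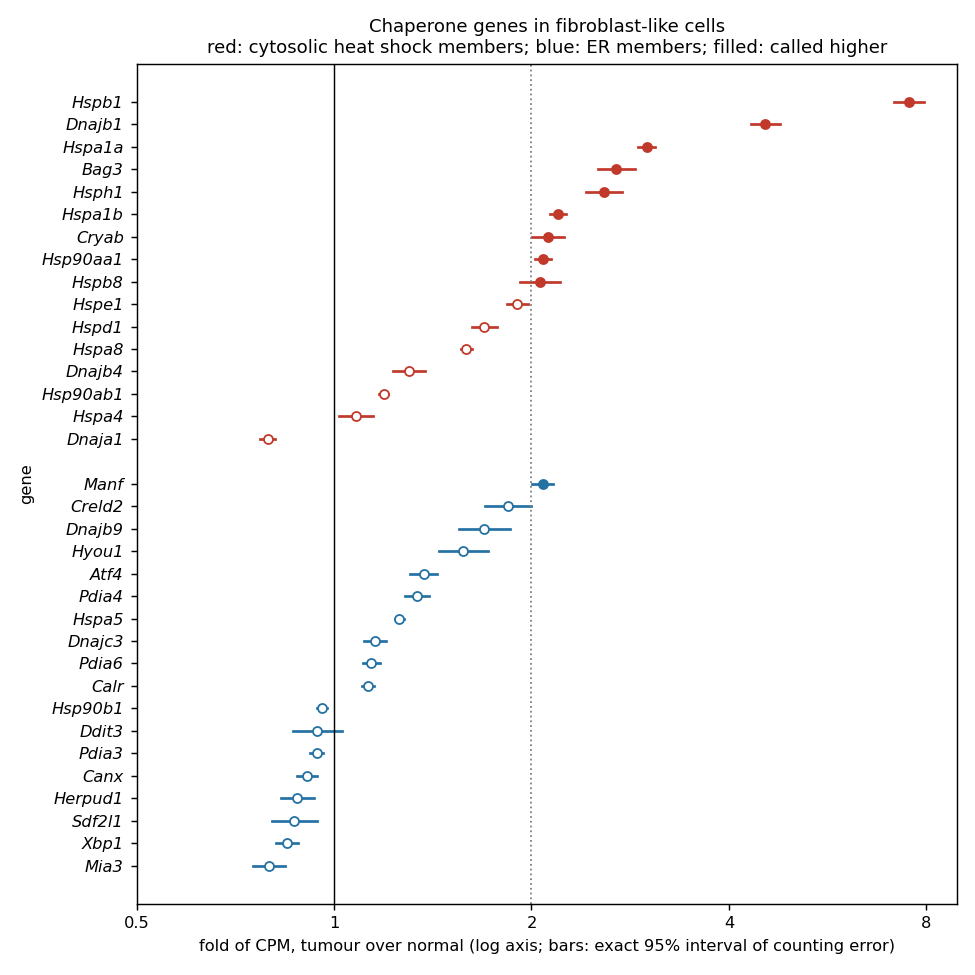
Fold of CPM in tumour over normal fibroblast-like cells on a log axis for each of the 34 members, with the exact 95% interval of counting error as a bar; red points are cytosolic members, blue points ER members, and filled points were called higher. The red points reach 7.52 at Hspb1, while the blue points lie between 0.80 (Mia3) and 2.08 (Manf).

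Among the small heat shock proteins, which hold unfolded protein without using ATP, Hspb1 had the highest fold of the members. Hspb1 (ENSMUSG00000004951, chr5:135887919-135889563, plus strand) was counted at 101 CPM in normal cells against 763 CPM in tumour cells, 7.52-fold higher (7.13 to 7.93). Hspb8, which works with Bag3, went from 65.9 to 135.8 CPM, 2.06-fold higher (1.92 to 2.21). Cryab, alpha-B crystallin, went from 105 to 222 CPM, 2.12-fold higher (2.00 to 2.24). All 3 genes of this kind were called in the summed cells. The Cryab call was lost in 4 of 20 alternative settings, among them thinned cells (log2 fold 0.89), every cell weighted the same (0.86) and lenient filters (0.95), and the Hspb8 call in 5. Hspb1 was also found in a larger share of cells. To compare shares across depths, each cell was thinned to 5000 UMIs. An Hspb1 UMI was then found in 16.1% of 1361 normal cells (14.2% to 18.2%, exact binomial) and in 59.6% of 1878 tumour cells (57.3% to 61.8%). Unthinned, the shares were 22.5% and 68.0%. Cells expected to hold little Hspb1 gave a lower share: after thinning, 7.44% of 215 normal Ear2-cluster cells and 0 of 38 tumour ones had an Hspb1 UMI (median depths 8251 and 7820 UMIs before thinning), the latter allowing up to 9.25%. For Cryab the thinned share moved less, from 34% to 41.6% (52.7% and 55.8% unthinned), and the gene's UMIs were unevenly spread, with the 188 highest thinned tumour cells holding 58.2% of them. Normal endothelial-like cells gave a Cryab share of 0.743% after thinning (0.742% before, at a median depth of 3958 UMIs).

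The inducible Hsp70 genes were both called. Hspa1a (ENSMUSG00000091971, chr17:34969190-34972156, minus strand) was counted at 338 CPM in normal cells against 1013 CPM in tumour cells, 3.00-fold higher (2.91 to 3.09). Hspa1b (ENSMUSG00000090877, chr17:34956436-34959238, minus strand) was at 415 and 913 CPM, 2.20-fold higher (2.14 to 2.26). The coding sequences of this pair were 99.6% identical, while the region after the coding sequence, where 3′ reads lie, was 70.2% identical, so how reads split between them is uncertain. Summed, the pair went from 754 to 1926 CPM, 2.56-fold higher (2.504 to 2.609). The rise lay more in UMIs per cell than in the share of cells: after thinning, 52.3% of normal and 66.2% of tumour cells had an Hspa1a UMI (62.1% and 74.7% unthinned), and for Hspa1b the shares were 65.5% and 69.0% (75.8% and 79.3% unthinned). No class here is known to lack Hspa1a; the 38 thinned tumour Ear2-cluster cells gave a share of 18.4% (28.6% unthinned). Hspa8, the constitutive Hsp70, was at 959 and 1526 CPM, a fold of 1.59 (1.56 to 1.62). Hspa4, an Hsp110-type exchange factor, was at 110 and 119 CPM, a fold of 1.08 (1.02 to 1.15). Its relative Hsph1, Hsp105, was called at 79.4 and 205 CPM, 2.58-fold higher (2.42 to 2.75).

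The J-domain proteins, which deliver clients to Hsp70, did not move together. Dnajb1, the stress-induced Hsp40, went from 115 to 524 CPM, 4.55-fold higher (4.32 to 4.78), and its thinned share of cells from 25.4% to 59.9% (36.1% and 75.5% unthinned). In normal endothelial-like cells that thinned share was 32.2%. Dnajb4 was at 119 and 154 CPM, a fold of 1.30 (1.23 to 1.37). Dnaja1, a mostly constitutive Hsp40 and the only cytosolic member under its normal level, was at 620 and 491 CPM, a ratio of 0.79 (0.77 to 0.81). Bag3, which links Hsp70 to small heat shock proteins and to autophagy, went from 75.2 to 202 CPM, 2.69-fold higher (2.52 to 2.87). The annotated Bag3 gene overlaps 2610306O10Rik on the same strand, so some of its reads may be shared.

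Of the Hsp90 and mitochondrial chaperonin genes 1 of 4 was called. Hsp90aa1, the inducible cytosolic Hsp90, went from 458 to 954 CPM, 2.08-fold higher (2.03 to 2.14). Hsp90ab1, the constitutive form, was at 1504 and 1792 CPM, a fold of 1.19 (1.17 to 1.21). Hspe1 was at 248.6 and 473 CPM, a fold of 1.90 (1.83 to 1.97) just under the threshold, and its partner Hspd1 was at 178 and 302 CPM, a fold of 1.70 (1.62 to 1.77). Hspd1 and Hspe1 overlap on opposite strands at their starts.

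Among ER members, Manf was the only one called. Manf, a secreted ER-stress protein (ENSMUSG00000032575, chr9:106838312-106891979, minus strand), went from 243 to 506 CPM, 2.08-fold higher (2.01 to 2.16), with a thinned share of cells of 64.8% and 79.1% (80.3% and 87.7% unthinned). The annotated Manf gene overlaps Rbm15b on the same strand, so some of its reads may be shared. Creld2, which is often induced with Manf, lay just outside the call at 51.1 and 94.1 CPM, a fold of 1.84 (1.70 to 2.00). The Manf call was lost in 6 of 20 alternative settings, among them female normal cells only (log2 fold 0.76), no tumour Thbs4 cluster (0.90) and no normal Krtdap cluster (0.99).

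The ER Hsp70 and Hsp90 stayed close to their normal levels. Hspa5, BiP, the main ER Hsp70, was counted at 1413 CPM in normal cells against 1776 CPM in tumour cells, a fold of 1.26 (1.24 to 1.28). Its exchange factor Hyou1 was at 47.1 and 74.1 CPM, a fold of 1.57 (1.44 to 1.72). Hsp90b1, Grp94, was at 1379 and 1320 CPM, a ratio of 0.96 (0.94 to 0.97). The BiP co-chaperones of the J-domain kind were Dnajb9, at 43.8 and 74.1 CPM with a fold of 1.69 (1.55 to 1.85), and Dnajc3, at 273 and 315 CPM with a fold of 1.15 (1.11 to 1.199). Sdf2l1, another partner of BiP, was at 68.3 and 59.4 CPM, a ratio of 0.87 (0.80 to 0.94).

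The lectin chaperones and disulfide isomerases lay within a narrow band. Calr, calreticulin, was at 960 and 1082 CPM, a fold of 1.13 (1.10 to 1.15), and Canx, calnexin, at 343 and 311 CPM, a ratio of 0.91 (0.88 to 0.94). Pdia3, the isomerase that works with both, was at 793 and 746 CPM, a ratio of 0.94 (0.92 to 0.96). Pdia4 had a fold of 1.34 (1.28 to 1.40) and Pdia6 one of 1.14 (1.11 to 1.17). Mia3, which exports bulky collagen from the ER, was at 141 and 112 CPM, a ratio of 0.80 (0.75 to 0.84), the lowest of the ER members.

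The transcription factors and the degradation factor gave no common direction. Atf4 was at 163 and 224 CPM, a fold of 1.37 (1.31 to 1.44). Ddit3, which encodes the apoptotic factor CHOP, was at 57.7 and 54.4 CPM, a ratio of 0.94 with an interval that includes 1 (0.87 to 1.03). Xbp1 was at 291 and 247 CPM, a ratio of 0.85 (0.82 to 0.88); splicing of Xbp1, cleavage of ATF6 and translation of Atf4 are not seen in these counts. Herpud1, a part of the ER degradation machinery, was at 119 and 104 CPM, a ratio of 0.88 (0.83 to 0.93). Over the 18 ER members 10 intervals lay above 1 and 7 below it, and over the 16 cytosolic members 15 and 1. Of the 6840 genes with at least 20 CPM, 27.3% lay above and 58.4% below.

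The rise of cytosolic members rested on a broad shift with a long upper tail. Among 5000 UMIs, the median thinned tumour fibroblast-like cell held 42 UMIs of cytosolic members (22 at the 10th and 102 at the 90th percentile). The median thinned normal cell held 25 (15 and 40). For ER members the medians were 38 (18 and 65) in tumour and 34 (21 and 52) in normal cells. The 10th percentile was thus higher in tumour cells for the cytosolic list and lower for the ER list. Across the cells of a library, the rank correlation of the 2 sums was -0.02 over 1361 normal and 0.20 over 1878 tumour cells. These correlations are descriptions over cells that share a library and a fixed depth.

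**Figure D2:**
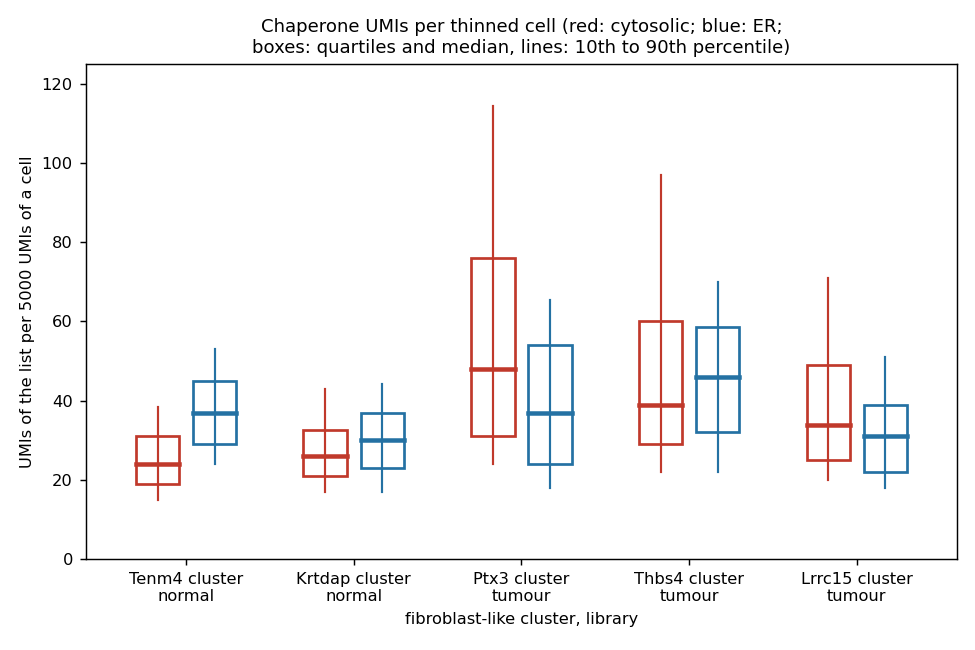
UMIs of the cytosolic list (red) and of the ER list (blue) per 5000 UMIs of a cell in the 5 main fibroblast-like clusters. Only cells with at least 5000 UMIs are included. Boxes show quartiles and median, and lines the 10th to 90th percentile over cells. The cytosolic median is 24 and 26 in the normal clusters and 48, 39 and 34 in the tumour clusters led by Ptx3, Thbs4 and Lrrc15, where the upper lines reach 114, 97 and 71.

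The cytosolic level differed among the tumour clusters. The Ptx3 cluster had 11544 CPM of cytosolic members, the Thbs4 cluster 9688 and the Lrrc15 cluster 7824, which also expresses the myofibroblast genes Cthrc1 and Inhba. The lowest of these was still above both normal clusters, which had 5187 CPM (Tenm4) and 5820 CPM (Krtdap). Against the other tumour fibroblast-like cells, the Lrrc15 cluster had 4 cytosolic members called lower and 0 higher, where 7.9% and 5.71% of all genes were. Hspa1a was at 472 CPM there and 1300.2 CPM in the other tumour cells, 2.75-fold lower (2.67 to 2.84), and Hspa1b, Dnajb1 and Hsph1 were also called. Hspb1 differed little, at 752 and 769 CPM, so the 2 genes did not follow each other there. The Ptx3 cluster had 1 member called higher, Dnajb1, at 824 and 337 CPM, and 0 lower (6.83% higher and 5.67% lower over all genes), and the Thbs4 cluster had 0 called either way (2.56% higher and 4.09% lower over all genes).

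Across these 5 clusters together, the ER sum spanned a narrower range than the cytosolic sum. Between the Tenm4 and Krtdap clusters, however, the ER sum differed more. The ER sum was 9123 CPM in the Thbs4, 7985 in the Ptx3 and 6747 in the Lrrc15 cluster. It was 7560 in the Tenm4 and 6256 in the Krtdap cluster, so that tumour and normal clusters overlapped. No ER member was called in any of these 5 cluster comparisons. Over all genes, 2.56% to 9.5% were called higher and 4.09% to 9.13% lower in them. Creld2 and Manf were at 146 and 656 CPM in the Thbs4 cluster, and at 67.0 and 426 CPM in the Lrrc15 cluster.

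The normal clusters differed in the small heat shock genes Hspb1 and Hspb8. Hspb1 was at 215 CPM in the Krtdap cluster, which also expresses the adventitial genes Dpp4 and Sema3c, and at 22.4 CPM in the Tenm4 cluster. Against the other normal fibroblast-like cells, 2 of 33 tested members were called higher in the Krtdap cluster and 0 lower. Over all genes 7.62% were higher and 9.13% lower, so the count of higher members was no larger than that share. They were Hspb1 at 6.28-fold (5.54 to 7.14) and Hspb8 at 3.01-fold (2.63 to 3.44). In the Tenm4 cluster 3 of 33 tested members were called lower, Hspb1, Hspb8 and Dnajb1, and 0 higher. Over all genes 8.42% were lower and 9.5% higher, so this count too was near the share over all genes. Cryab was not called in either comparison. The comparisons largely mirror each other, since most other normal fibroblast-like cells lay in the opposite cluster. The thinned share of cells with an Hspb1 UMI was 33.8% in the Krtdap and 7.56% in the Tenm4 cluster (51.8% and 10.1% unthinned), the latter close to the 7.44% of normal Ear2-cluster cells. The Hspb1 fold between libraries therefore varied with the normal cells used, from a log2 fold of 1.82 without the Tenm4 cluster to 4.48 without the Krtdap cluster.

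Immediate early genes, which mark recent cell activation and also rise during digestion, moved with the cytosolic members. Their sum in fibroblast-like cells was 16059 CPM in normal against 26230 CPM in tumour cells, with 8 of 19 tested genes called higher and 0 lower. By cluster it was 31434 CPM (Ptx3), 29899 (Thbs4), 17819 (Lrrc15), 21041 (Krtdap) and 12752 (Tenm4). The Krtdap cluster thus had a higher immediate early and a lower cytosolic level than the Lrrc15 cluster. When only cells with 50 to 150 immediate early UMIs per 5000 were kept, the levels were 20083 CPM in 938 tumour and 19014 CPM in 539 normal cells. In those cells the cytosolic median log2 fold was 0.73 and the ER median 0.17. There 5 cytosolic members were called higher, where 10.3% of all genes were, with Hspa1b, Hspb8, Hsp90aa1 and Hsph1 no longer called. The same calls were lost without the tumour Ptx3 cluster. This range does not cover the clusters alike: the median thinned cell held 43 immediate early UMIs in Tenm4 and 107 in Krtdap. It held 162 in Ptx3, 154 in Thbs4 and 83 in Lrrc15. Immediate early level and cluster makeup cannot be told apart here. The part of digestion in the difference between the libraries, before or after this restriction, was not tested.

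Markers of other cells also differed between the fibroblast-like sums. Of the lists that were higher in the tumour sum, ductal or tumour epithelial markers went from 34.7 to 1106 CPM (2 and 5 of 8 genes at 1 CPM or more, 1014 CPM of it from Spp1, with Cdh1 at 0), pericyte or smooth muscle markers from 135 to 659 CPM (8 of 9 in each, 491 CPM from Acta2), neutrophil markers from 3.36 to 324 CPM (1 and 3 of 6) and Schwann markers from 19.0 to 168 CPM (161 CPM from Ncam1, with Sox10 at 0). Macrophage markers went from 478 to 20.6 CPM, acinar from 423 to 54.3 CPM and endothelial from 481 to 204 CPM. Lymphatic endothelial markers went from 169 to 435 CPM (4 and 6 of 6 genes, 421 CPM from Pdpn, which the tumour sort used), and tumour cells of that class had the highest cytosolic sum. Mesothelial markers went from 84.4 to 146 CPM, 144 CPM of it from Wt1. The part of such RNA in the members' values was not tested.

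Other genes of the same pathways, taken from lists that do not include the members, were mostly within 2-fold. Of 13 tested cytosolic chaperone and heat shock factor genes outside the 16, none was higher by the call and 1 was lower. The median log2 fold of the 18 such genes with at least 20 CPM was -0.19. Hspa4l, an Hsp110 relative, was 2.38-fold lower (2.14 to 2.65), and Chordc1 was at a ratio of 0.63, while Dnajb6 was at a fold of 1.38 and Dnaja4 at 2.63 with only 20.7 CPM. The 7 subunits of the CCT chaperonin, which folds actin and tubulin, lay between Cct5 at 0.86 and Cct7 at 1.28, with Cct3 at 1.02 and Cct4 at 1.13. None of these genes had a fold near those of Hspb1 or Dnajb1.

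In the ER, 1 of 14 other folding genes was called, Ero1l, the oxidase that recharges disulfide isomerases, at 2.65-fold (2.36 to 2.97). Pdia5 was at 3.03-fold but 47.3 CPM, and Dnajc10 and Fkbp2 were at 0.58 and 0.77. Of 12 tested collagen-directed genes 2 were called higher and 0 lower. Plod2, a lysyl hydroxylase of collagen, went from 124 to 398 CPM, 3.21-fold higher (3.05 to 3.38), while P4ha1 was at 1.00 and Plod1 at 0.87. P4ha3 had too few normal UMIs for a firm fold, at 0.137 and 25.6 CPM. The ER degradation and translocation list had 0 of 14 called, from Os9 at 0.67 and Sel1l at 0.82 to Sec61g at 1.74 and Ssr4 at 1.79, and the cargo export list 0 of 13, from Kdelr3 at 0.80 and Sar1b at 0.84 to Kdelr2 at 1.34 and Surf4 at 1.39.

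The stress sensors and ATF4 targets gave a mixed picture. Of the sensors and related factors 0 of 3 tested were called. Eif2ak3, the PERK sensor, was at 28.3 and 13.9 CPM, below the level for a call, Mbtps1 was at a ratio of 0.72, Creb3l2 at 1.05 and Atf6b at 1.25. Among 8 tested targets of ATF4 and CHOP, 3 were called higher and 1 lower. Ddit4, an inhibitor of mTORC1 that hypoxia and glucocorticoids also induce, went from 11.1 to 241 CPM, 21.7-fold higher (18.6 to 25.5), and Cebpb, which has many other inducers, was 5.27-fold higher (5.12 to 5.44). Atf5 was 2.23-fold lower (2.12 to 2.34) and Atf3 was at a ratio of 0.54.

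The small heat shock proteins differed widely across cell classes. Normal endothelial-like cells had 1673 CPM of Hspb1 (1640 to 1707), with an Hspb1 UMI in 98.0% of 404 thinned cells (90.6% unthinned), against 101 CPM in normal fibroblast-like and 36.4 CPM in normal Ear2-cluster cells. Tumour fibroblast-like cells at 763 CPM stayed under the endothelial-like level. Cryab was at 444 CPM in pericyte-like or smooth muscle-like cells, with a UMI in 85.9% of 99 thinned cells (84.7% unthinned), and at 1.93 CPM in endothelial-like cells. Hspb8 was above 30 CPM in fibroblast-like, mesothelial-like and Myh11-cluster cells among the units of at least 10 cells, and was at 0.418 CPM in the normal Ear2 cluster.

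**Figure D3:**
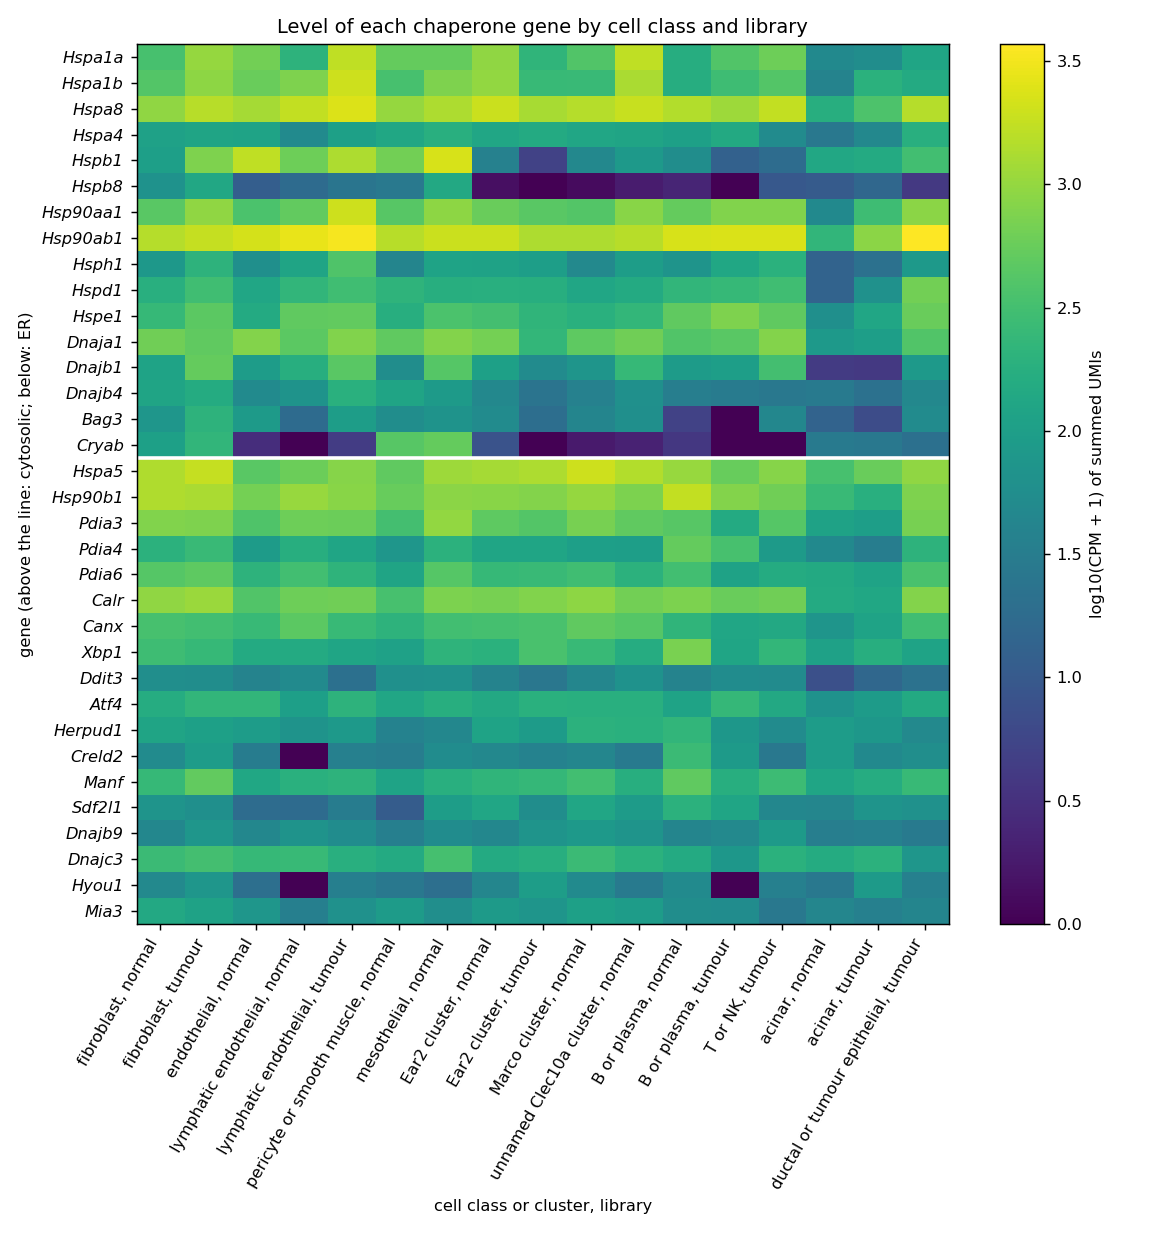
Level of each member as log10(CPM + 1) of summed UMIs (colour scale) by cell class or cluster and library, for units of at least 10 cells; cytosolic members lie above the white line and ER members below it. Hspb1, Hspb8 and Cryab change strongly from column to column, while Hsp90ab1 and Hspa8 are bright in most columns and dimmer in acinar-like cells.

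The inducible Hsp70 pair was not highest in fibroblasts. In the normal library its sum was 2993 CPM in an unnamed cluster of 784 cells led by Clec10a, in which 9 of 10 macrophage or monocyte markers were found in at least 25% of cells, against 754 CPM in fibroblast-like and 662 CPM in Marco-cluster macrophage-like cells. That cluster also had an immediate early level of 29664 CPM. Tumour lymphatic endothelial-like cells reached 3678 CPM. Normal acinar-like cells had 87.1 CPM, in a class whose RNA is mostly digestive enzyme transcripts.

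Summed over cells, ER members were high in fibroblast-like, normal B-like and Marco-cluster cells. The normal B-like sum rested on few cells, with a thinned median of 18 UMIs and a 90th percentile of 84.8. The thinned median was 34 in normal fibroblast-like and in Marco-cluster cells. Over the 9 units of at least 50 cells, 7 of 18 ER members had their highest level in tumour fibroblast-like, 2 in normal fibroblast-like and 6 in normal B-like or plasma-like cells. Their sum was 7332 CPM in normal B-like, 7163 in Marco-cluster, 7006 in normal fibroblast-like, 3508 in endothelial-like and 2900 in pericyte-like or smooth muscle-like cells. Acinar-like cells had 1925 CPM in the normal library, where enzyme transcripts fill most of the sum. Of the 16 cytosolic members, 6 had their highest level in tumour lymphatic endothelial-like and 4 in tumour fibroblast-like cells. The intervals of the 2 highest units overlapped for 5 cytosolic members (Hspa1a, Hspa4, Hspd1, Dnaja1 and Dnajb4) and 6 ER members (Canx, Ddit3, Atf4, Herpud1, Manf and Dnajb9), so those ranks are ties within counting error.

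**Figure D4:**
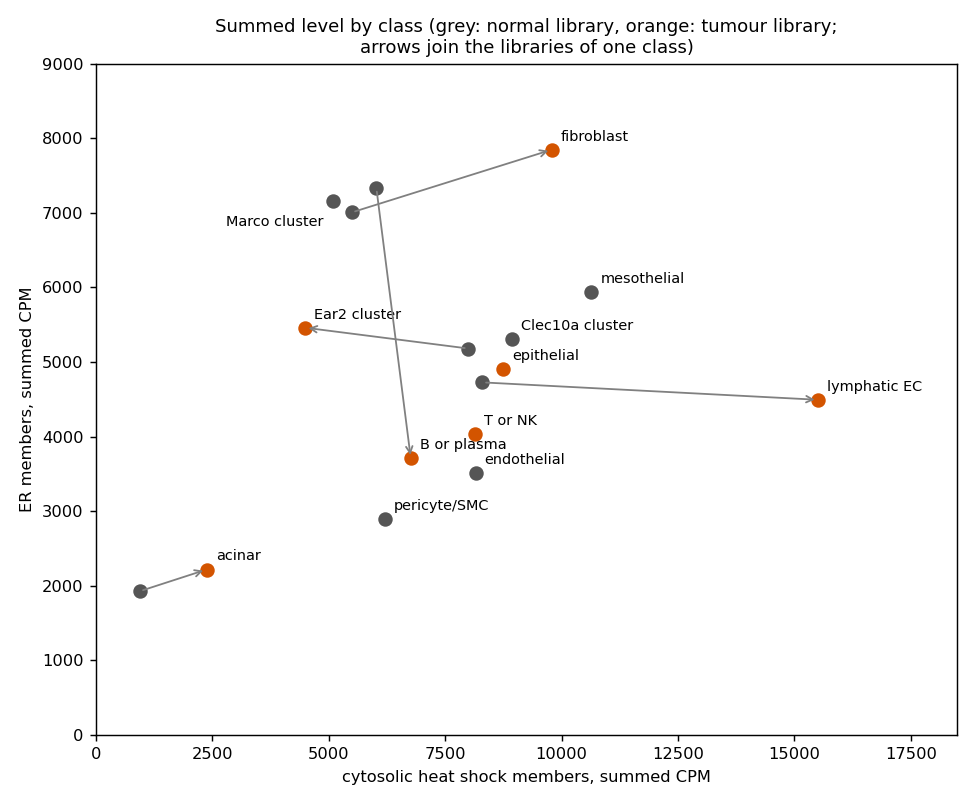
Summed CPM of the 16 cytosolic members (horizontal) against summed CPM of the 18 ER members (vertical) for each class or cluster of at least 10 cells; grey points are normal, orange points tumour, and arrows join the libraries of 1 class. The fibroblast and lymphatic endothelial arrows point right, from 5491 to 9789 and from 8301 to 15511 CPM, the Ear2 arrow, which joins cells of mostly different finer clusters, points left, from 7996 to 4488 CPM, and the B-cell arrow points down, from 7332 to 3706 CPM.

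Classes present in both libraries did not share 1 shift. Lymphatic endothelial-like cells (14 normal, 68 tumour) had 7 of 14 tested cytosolic members called higher and 0 lower, with 3.27% of all genes higher and 8.86% lower. Hspa1a was at 203 and 1688 CPM, 8.30-fold higher (4.73 to 16.1, from 12 normal UMIs), and Hsp90aa1 at 508 and 1962 CPM, 3.86-fold higher (2.69 to 5.75). Hspa1b, Hspb1, Hsph1, Dnajb1 and Dnajb4 were the others. The cytosolic median was 1.13 and the ER median -0.29, with 0 of 15 ER members called. In these cells the immediate early level was 18634 CPM for normal and 16455 CPM for tumour cells, lower where the cytosolic level was higher.

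In the Ear2 cluster, 269 normal and 49 tumour cells of the macrophage or monocyte class, 5 cytosolic members were lower in the tumour library; this cluster was set apart from its class after seeing the data. Of 12 tested, 0 were called higher and 5 lower (Hspa1a, Hspa1b, Dnaja1, Dnajb1 and Bag3), where 10.5% of all genes were lower, and the median log2 fold was -0.81. Hspa1a was at 941 CPM in normal against 217 CPM in tumour cells, 4.34-fold lower (3.57 to 5.34). The immediate early level was also lower, at 19265 and 14399 CPM. The cells compared were not alike: at a clustering resolution of 1, 46 of the 49 tumour cells but 6 of the 269 normal cells fell in a cluster led by Arg1. Within that whole Arg1 cluster, 46 tumour and 38 normal cells chosen after seeing the data, the cytosolic median was -0.41 (-1.38 to 0.73), with 1 of 13 members called higher and 4 lower (19.5% and 12.2% of all genes). There the Hspa1a level was 260 CPM (normal) and 100.3 CPM (tumour), and the cytosolic sum at 4626 and 3975 CPM. The ER median in the Arg1 cluster was -0.39, with 0.07 for all genes. In the whole Ear2 cluster the ER median was 0.09, with -0.01 for all genes. Of 16 ER members tested in the Ear2 cluster, 1 was called higher, Hyou1 at 42.2 and 94.9 CPM (16.9% of all genes were higher). There 1 was called lower, Sdf2l1 at 127 and 55.7 CPM. With the Marco cluster added, which held normal cells only, the cytosolic median was -0.57, with 3 of 11 lower (12.9% of all genes).

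In B-like or plasma-like cells, 74 normal and 52 tumour, it was the ER members that differed. Of 16 tested, 8 were called lower in the tumour library and 1 higher, Atf4, with 8.98% of all genes lower and 9.08% higher. Xbp1, which plasma cells need, was at 704 and 123 CPM, 5.73-fold lower (3.71 to 9.34). Jchain, a plasma cell gene, was at 15625 CPM in normal against 878 CPM in tumour cells, and Mzb1 at 1481 and 978 CPM. The ER sum rested on few cells: the thinned median was 18 UMIs and the 90th percentile 84.8 in 65 normal cells, and 15 and 57.5 in 6 tumour cells. Fewer plasma cells and less ER chaperone RNA per cell cannot be told apart in these sums. Of 12 cytosolic members 1 was higher (Hspa1a) and 1 lower (Hspb1). Median depth was 9822 UMIs in the normal and 2616 in the tumour B-like cells.

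Acinar-like cells, 17 normal and 15 tumour, had 6 of 9 tested cytosolic members and 1 of 14 ER members called higher and 0 lower, where 33.3% of all genes were higher and 12% lower and the median of all genes was 0.71. The 6 were Hspa1b, Hspa8, Hsp90aa1, Hsp90ab1, Hspd1 and Hspe1, and the ER member was Hyou1. The cytosolic median was 0.83 (0.14 to 2.27), near that of all genes, and 7 of 13 cytosolic members lay above the latter. For the ER members the median was 0.10, with 3 of 17 above it.

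**Figure D5:**
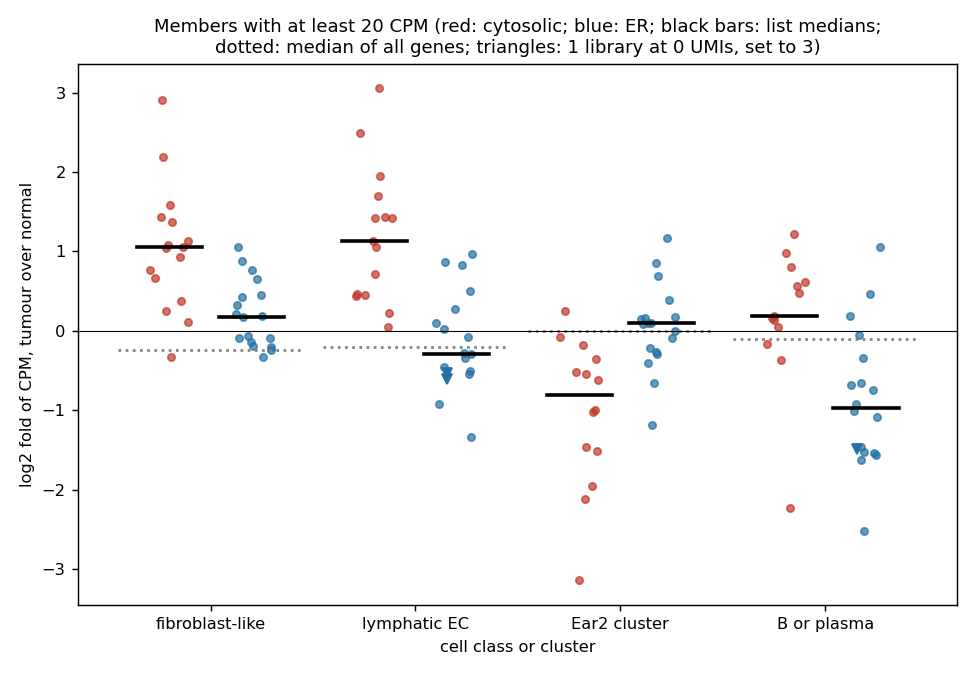
Log2 fold of CPM in tumour over normal for members with at least 20 CPM in either library, in 4 classes or clusters; red points are cytosolic and blue points ER members, black bars list medians, dotted lines the median of all genes, and triangles mark members with 0 UMIs in 1 library, set to 3. The red medians lie at 1.05, 1.13, -0.81 and 0.18 and the blue ones at 0.18, -0.29, 0.09 and -0.97, from left to right.

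The sex of the mice differed between libraries. By sex-linked transcripts, 496 normal fibroblast-like cells were female and 775 male, while 2139 tumour cells were female and 0 male. Between female and male normal cells 0 of 34 members were called, where 0.455% of all genes were higher and 0.654% lower in female cells. With female normal cells only, the tumour over normal cytosolic median log2 fold was 1.05 and the ER median -0.06.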

How the data were processed

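Single-cell 3′ libraries (10x Genomics) were analysed from the matrices the authors deposited. Per the submitters' processing notes these came from Cell Ranger 3.1.0 on mm10; the deposited values are whole UMI counts for each gene in each barcode. Barcodes with at least 500 genes, 1000 UMIs and at most 10% mitochondrial UMIs were kept. Scrublet removed 96 normal doublets. Its threshold marked only 0.117% of tumour cells, so the 53 highest scores were removed instead. Both libraries were clustered together (scanpy 1.11.5, igraph 0.11.9; 2000 variable genes without the members, 30 components, 15 neighbours, Leiden resolution 0.5), and clusters were named from at least 3 markers found in 25% of their cells, unless another class had more markers than the named one among the top 10 genes by fold.

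Counts were summed per class and library. Each fold has an exact 95% interval for 2 Poisson counts (scipy 1.17.1); zeros were replaced by 3 counts. In simulated fibroblast-like sums, 50 of 50 genes raised 2.5-fold were called, and 0 of 3117 unchanged genes. The simulation held counting error only, with no spread between mice or libraries. It therefore gives no rate of false calls for these data. The 34 members and all lists were chosen with earlier results of these data known, so their direction is no independent evidence. From each other list the 2 highest and 2 lowest genes by fold are named. Positions are from GENCODE vM21 (GRCm38). Filters, doublets, clustering, scaling, thinning, cluster choice and the CPM minimum were varied.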

Additional observations from a re-analysis of the deposited data

Results flagged for a closer look

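The cytosolic members had medians of opposite sign in different cells under the tumour over normal contrast. Their median log2 fold was 1.05 in fibroblast-like cells and -0.81 in the Ear2 cluster. There 46 of 49 tumour but 6 of 269 normal cells belonged to an Arg1 cluster at a resolution of 1, and within that whole cluster the median was -0.41 (-1.38 to 0.73). With 1 library per group, this difference was not tested.

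The ER members had a median log2 fold of 0.18 in fibroblast-like cells and of -0.97 in B-like or plasma-like cells, where Jchain was at 15625 and 878 CPM. This difference was not tested either.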

How the results depend on the processing

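Over 20 alternatives, 18 of them planned and 2 chosen after seeing the data (cells of matched immediate early level, and members kept among the variable genes with the Thbs4 cluster counted as fibroblast-like), the cytosolic median log2 fold ranged from 0.73 to 1.40 and the ER median from -0.06 to 0.53. The cytosolic median was above the ER median in all 20, no member was called lower in any, and Hspa1a, Hspb1, Dnajb1 and Bag3 were called higher in all 20. TMM scaling, median ratio scaling and no minimum on CPM could not change the order of the medians. Their gap stayed at 0.87 there by construction. The cytosolic count of 9 fell to 5 without the tumour Ptx3 cluster and to 5 in cells of matched immediate early level, and was 12 under TMM and median ratio scaling, with Hspa8, Hspd1 and Hspe1 added. The ER count of 1 fell to 0 with doublets kept, at a resolution of 1, with members kept among the variable genes, with female normal cells only, without the normal Krtdap cluster and without the tumour Thbs4 cluster; in the first 3 of these the Thbs4 cluster stayed unnamed and left the class. It was 2 with every cell weighted the same, in thinned cells, without the normal Tenm4 cluster and without the tumour Lrrc15 cluster. Under TMM it was 3 and under median ratio scaling 4, with ER medians of 0.52 and 0.53, and all genes split 559 higher to 191 lower and 570 to 190, instead of 331 to 391. With no minimum on CPM all genes split 1349 to 2796, and the members' counts were as before. No paired analysis was possible because there is 1 library per group. For the same reason no replicate could be left out. The depth of 14604566 normal and 29074418 tumour UMIs in fibroblast-like cells makes counting error small, and the spread between mice is unknown.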

Other observations

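Within the normal library, no member passed the call between female and male fibroblast-like cells. Of the 18 ER members 15 had an interval of counting error above 1 (higher in female cells) and 0 below it, where 20.1% and 11.4% of genes with at least 20 CPM did, with a median log2 fold of 0.35, against 0.06 for 6730 genes with at least 20 CPM, and their sum was 8124 CPM in 496 female and 6396 CPM in 775 male cells. Hsp90b1 was at 1629 and 1228 CPM and Hspa5 at 1646 and 1297 CPM. The Tenm4 cluster made up 75% of the female and 63.0% of the male cells, and the Krtdap cluster 20.2% and 35.5%. Within the Tenm4 cluster alone, 372 female and 488 male cells, the ER median was 0.37, again with 15 intervals above 1 and 0 below. Cytosolic members there had 7 intervals above 1 and 3 below, with a median log2 fold of 0.09. Over all normal fibroblast-like cells, cytosolic members had 5 intervals above 1 and 6 below. In that comparison Hspb1 was at 66.2 and 124 CPM and Dnajb1 at 92.1 and 131 CPM. The immediate early level was 13748 CPM in female and 17833 CPM in male cells. The number of mice of each sex is unknown, so sex and animal cannot be told apart.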
